A study of Homo sapiens with 26 samples.

Results

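The heat shock proteins of the cytosol and the mitochondrion were followed in LoVo cells, a line from a human colorectal adenocarcinoma. The 10 genes were taken by symbol from both deposited expression tables: HSPA1A, HSPA1B, HSPA8, HSP90AA1, DNAJB1, HSPH1, HSPB1, HSPD1, HSPE1 and BAG3. All 10 were found in each table, among 18165 genes in the table of 18 libraries and 17734 genes in the table of 8 libraries. The study compared LoVo lines carrying PIK3CA H1047R or E545K, introduced with lentiviral vectors, with the wild-type line, and poly(A) RNA was sequenced in 26 libraries of 13 groups, 2 libraries a group. In the first table each of the 3 lines was given 0.5 µM palbociclib, which blocks the cell cycle kinases CDK4 and CDK6, for 72 hours, or medium conditioned by senescent cells, or the vehicle DMSO. In the other table H1047R and E545K cells were given 0.5 µM palbociclib with 4 µM erlotinib, an inhibitor of the EGF receptor kinase, for 48 hours, or 0.5 µM palbociclib alone. All cells were grown in DMEM with 10% fetal bovine serum. The palbociclib work on each mutation used 1 clone of those made, so that mutation and clone cannot be told apart. The hours in conditioned medium, the cells that conditioned it and the hours in palbociclib alone in the table of 8 libraries were not given in the sources used here. Nothing states that the libraries of a group came from separate cultures, so the p-values below measure only the spread between libraries, which may be technical.

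Heat shock proteins are chaperones: they hold unfolded proteins, help them to fold and pass those that fail to degradation. HSP70 proteins bind exposed stretches of a client under the control of J-domain partners that stimulate their ATPase and of nucleotide exchange factors that release it, and HSP90 finishes the folding of kinases and receptors. Most of these genes are transcribed through the heat shock factor HSF1, which binds inverted repeats of nGAAn upstream of them, and tumour cells commonly hold many of them at high levels. In the mitochondrial matrix HSPD1 (HSP60) and its lid HSPE1 (HSP10) form the folding chamber for imported proteins.

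Upstream sequences are shown for DNAJB1 and HSPA1B, the genes that varied most, for HSPA1A, the near copy of HSPA1B, and for HSPD1, for its overlapping repeats. The heat shock repeat is in capitals, GAANNTTC and TTCNNGAA, each of which reads the same on both strands. They are RefSeq reference sequence of build GRCh38.p14, read 5′ to 3′ on the strand of the gene. The stretches of HSPA1A, HSPA1B and DNAJB1 each end before the first annotated exon there. HSPA1A and HSPA1B lie on chromosome 6, DNAJB1 on the minus strand of chromosome 19.
HSPA1A chr6:31815293-31815463: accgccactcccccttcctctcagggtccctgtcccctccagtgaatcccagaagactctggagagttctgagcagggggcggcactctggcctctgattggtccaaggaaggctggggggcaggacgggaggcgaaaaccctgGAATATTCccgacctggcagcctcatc
HSPA1B chr6:31827488-31827734: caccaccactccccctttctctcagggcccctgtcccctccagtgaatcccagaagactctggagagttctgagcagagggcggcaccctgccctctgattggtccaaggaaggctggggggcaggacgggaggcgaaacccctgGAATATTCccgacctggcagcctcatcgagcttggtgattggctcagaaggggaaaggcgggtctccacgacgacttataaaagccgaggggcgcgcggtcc
DNAJB1 chr19:14518421-14518647: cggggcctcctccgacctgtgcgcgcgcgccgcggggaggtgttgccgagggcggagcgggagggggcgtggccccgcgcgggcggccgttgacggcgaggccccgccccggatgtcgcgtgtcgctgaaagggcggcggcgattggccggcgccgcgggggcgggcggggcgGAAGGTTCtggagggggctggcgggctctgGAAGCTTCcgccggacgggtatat
HSPD1 chr2:197500061-197500090: gcattTTCTGGAAAGTTCTGGAAccgagcg
HSPD1 is on the minus strand of chromosome 2, and its 30 bases are shown because repeats of both orientations overlap there without a gap. HSPD1 and HSPE1 stand head to head, with RefSeq starts 105 bp apart at 197500274 and 197500379. The 30 bases lie inside the HSPD1 gene, before its other start at 197499840, and no match lay in the 250 bases before 197500274. In the 250 bases before the starts, HSPA1A had 1 GAANNTTC 106 bases before its start and HSPA1B had 1 at 105 bases. DNAJB1 had 2 before its start at 14518397, the nearer at 47 bases, and none before its 2 other starts. HSPA8, HSP90AA1 and HSPB1 each had at least 1 match before a start, while HSPE1, HSPH1 and BAG3 had no match in these windows. Among 35116 windows of the same length, 5.78% held GAANNTTC, 6.62% held TTCNNGAA, and 0.441% held both overlapping by the 3 letters they share at their ends, the form found for HSPD1, HSPA8 and HSP90AA1.

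HSPA1A and HSPA1B encode nearly the same inducible HSP70. Their coding sequences of 1926 bases differ at 4 positions in the annotation, and the longest identical run is 1709 bases. HSPA1A was listed at no more than 0.67 FPKM (fragments per kilobase of transcript scaled to library size, a level per length) in the table of 18 libraries, and at 0 in 3 of them. HSPA1B ranged from 62.8 to 287 FPKM in the same libraries. How the authors' counting divides fragments between the copies is not given in the sources used here, so HSPA1B may carry reads of HSPA1A and its values are best read as inducible HSP70 as a whole. HSPD1, HSPE1 and HSPA8 also have 17, 26 and 17 named pseudogenes in GENCODE 29, which may share reads with them. HSPA1A never reached 1 FPKM and was not tested, which left 9 of the 10 genes in the tests.

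The libraries held the epithelial genes EPCAM, at 182 to 417 FPKM over the 26 libraries, and KRT8, at 3436 to 8612 FPKM. All 10 epithelial markers were listed, 6 of them at 10 FPKM or more in every library of the table of 18, while KRT20, VIL1 and LGALS4 never passed 6.55 FPKM and CDH17 lay between 0.38 and 19.8 FPKM. Of the other lineages, the endothelial markers stayed at or below 0.45 FPKM, the fibroblast markers DCN and LUM at or below 0.06 FPKM and the leukocyte marker PTPRC at or below 1.55 FPKM, whereas COL3A1 of the fibroblast list reached 19.6 FPKM and CD68 of the leukocyte list lay between 24.1 and 68.9 FPKM. PIK3CA, the mutated gene, had 6.36 and 7.19 FPKM in H1047R, 8.2 and 7.37 FPKM in E545K, and 5.38 and 5.42 FPKM in wild-type cells in DMSO. FPKM gives no read depth. FPKM summed to between 441643 and 524290 per library, and 17.3 to 27.3% of the sum came from ribosomal protein genes. Wild-type cells in DMSO and in palbociclib stood apart. The median correlation of their mean profile with the other 8 groups of the table was 0.931 in DMSO and 0.946 in palbociclib. In the remaining groups it was 0.966 to 0.979, and the 2 wild-type profiles correlated at 0.987. Their ribosomal protein shares were the highest of that table, 27.1 and 27.3% in DMSO and 25.4 and 26.2% in palbociclib. The part of profile or ribosomal share in the comparisons with these wild-type cells was not tested.

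Per length, HSPA8, the constitutive HSP70 of the cytosol, was the most abundant of the 10, with a median of 1171 FPKM over the 18 libraries, which ranked it 68 of 18165 genes by mean level. HSPD1 had a median of 607 FPKM, HSPE1 of 347 FPKM and HSP90AA1, the inducible HSP90, of 272 FPKM. HSPA1B had a median of 94.2 FPKM and DNAJB1, the J-domain partner that works with inducible HSP70, of 54.6 FPKM. HSPH1, a large HSP70 relative that acts as nucleotide exchange factor, had a median of 37.5 FPKM, BAG3, a cochaperone that links HSP70 to autophagy, of 21.5 FPKM, and the small heat shock protein HSPB1 of 13.9 FPKM. The 10 genes together made up 0.482 to 0.677% of a library's FPKM in that table. They differed in how much they varied: the highest group mean was 4.496 times the lowest for HSPA1B and 2.75 times for DNAJB1, against 1.301 times for HSP90AA1 and 1.34 times for BAG3.

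**Figure D1:**
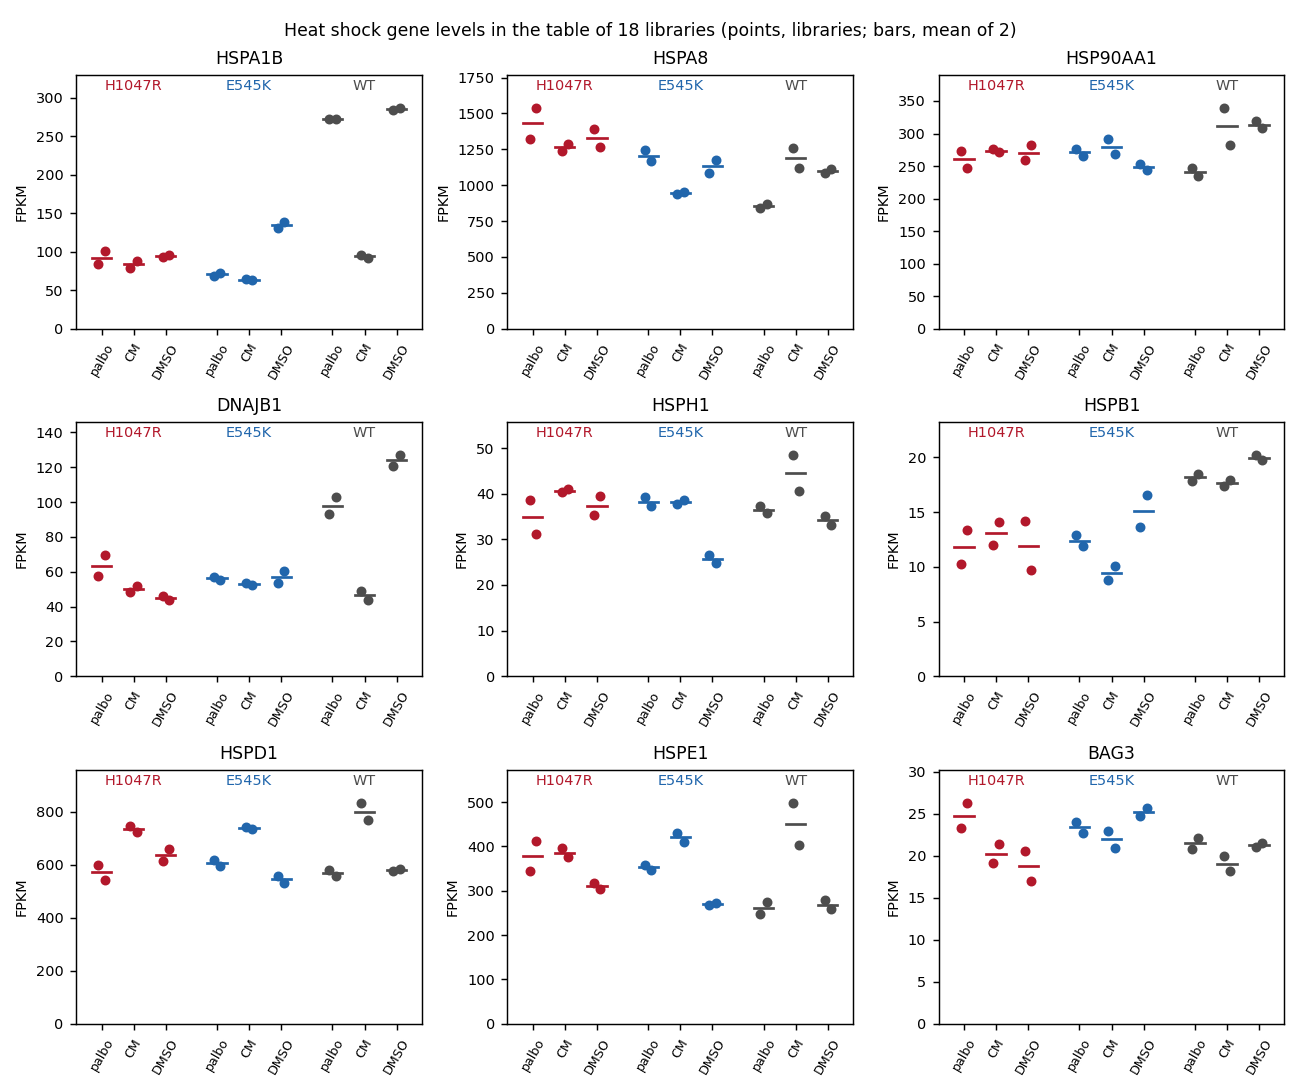
FPKM of the 9 tested heat shock genes in the table of 18 libraries, by line (H1047R, E545K, WT) and treatment (palbo, 0.5 µM palbociclib for 72 hours; CM, conditioned medium; DMSO); points are libraries, bars the mean of 2. HSPA1B stands at 273 to 287 FPKM in wild-type cells in palbociclib or DMSO and at or below 139 FPKM in the other 14 libraries, and HSPD1 is highest in conditioned medium in all 3 lines.

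Inducible HSP70 and its J-domain partner were lower in both mutant lines than in wild-type cells in DMSO, and by more than any other of the 9 tested genes. HSPA1B had 93.03 and 95.4 FPKM in H1047R, 131 and 139 FPKM in E545K, and 284 and 287 FPKM in wild-type cells. DNAJB1 had 46.2 and 43.9 FPKM in H1047R, 53.8 and 60.2 FPKM in E545K, and 121 and 127 FPKM in wild-type cells. For both genes the wild-type libraries lay above all 4 mutant libraries, and the H1047R libraries below the E545K ones. In RNA from whole cultures, fewer cells of a kind and less RNA per cell cannot be told apart. All tests used limma on log2(FPKM + 1) over all genes, with a call at a Benjamini-Hochberg adjusted p below 0.05. The log2 difference of HSPA1B was -1.59 ± 0.08 (SE) for H1047R (adjusted p = 8.40e-10) and -1.08 ± 0.08 for E545K (adjusted p = 9.18e-08). That of DNAJB1 was -1.44 ± 0.09 for H1047R (adjusted p = 6.37e-09) and -1.11 ± 0.09 for E545K (adjusted p = 2.22e-07). These differences stand against a median over all tested genes of 0.26 for H1047R and 0.25 for E545K, relative to which HSPA1B was at -1.85 and -1.33, and DNAJB1 at -1.70 and -1.36. H1047R was also below E545K, at -0.51 ± 0.08 for HSPA1B (adjusted p = 0.000156) and -0.33 ± 0.09 for DNAJB1 (adjusted p = 0.00968). The DNAJB1 call between the mutants was lost without E545K DMSO replicate 2 (adjusted p = 0.109) and without H1047R DMSO replicate 2 (adjusted p = 0.0611).

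The share of genes called between the lines in DMSO was high, so that a call by itself sets none of the 10 apart. Of the 9 tested, 5 were called in H1047R against wild-type cells, 1 higher and 4 lower, where 67.4% of all tested genes were called, 49.9% higher and 17.5% lower. In E545K 6 were called, 1 higher and 5 lower, where 58.8% of all tested genes were called, 48.4% higher and 10.4% lower. Between H1047R and E545K 5 were called, 2 higher and 3 lower, with 41.6% of all genes, 21.6% higher and 20% lower. The lower share depends on scaling: after median-centring 0 of the 9 were higher and 7 lower in H1047R, and 0 higher and 6 lower in E545K, and over all genes called the higher share was 41.6% in place of 74.0% for H1047R and 43.8% in place of 82.3% for E545K. Quantile normalization gave 3 higher and 4 lower in H1047R, and 1 higher and 4 lower in E545K. The median of the 9 was -0.18 in H1047R and -0.33 in E545K, against the all-gene medians given above.

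HSPB1, which binds unfolding proteins without ATP, had 14.2 and 9.67 FPKM in H1047R, 13.6 and 16.6 FPKM in E545K, and 20.2 and 19.7 FPKM in wild-type cells in DMSO. The mutant libraries lay below the wild-type ones, at -0.72 ± 0.15 in H1047R (adjusted p = 0.000592) and -0.39 ± 0.15 in E545K (adjusted p = 0.0360). The E545K call was lost without E545K DMSO replicate 1 (adjusted p = 0.256), and without WT DMSO replicate 1 (adjusted p = 0.123) or replicate 2 (adjusted p = 0.0957). HSP90AA1 had 259 and 282 FPKM in H1047R, 253 and 245 FPKM in E545K, and 319 and 308 FPKM in wild-type cells. It was lower in E545K (-0.33 ± 0.09, adjusted p = 0.00379), although not past the threshold after quantile normalization (adjusted p = 0.163). In H1047R it was at -0.21 ± 0.09 (adjusted p = 0.0388), a call that was lost without H1047R DMSO replicate 1 (adjusted p = 0.216) or without either wild-type library (adjusted p = 0.155 and 0.0805) and that turned to 0.030 after quantile normalization.

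HSPH1 had 35.2 and 39.4 FPKM in H1047R, 26.5 and 24.8 FPKM in E545K, and 35.1 and 33.2 FPKM in wild-type cells in DMSO. E545K was lowest, at -0.40 ± 0.10 against wild type (adjusted p = 0.00290), and H1047R was above E545K by 0.52 ± 0.10 (adjusted p = 0.000670). Against wild type, HSPH1 in H1047R was not called, and its difference was -0.22 after median-centring. BAG3 had 20.6 and 17.0 FPKM in H1047R, 24.8 and 25.8 FPKM in E545K, and 21.1 and 21.5 FPKM in wild-type cells, so that E545K was highest and H1047R lowest. H1047R was below E545K (-0.41 ± 0.09, adjusted p = 0.00282). The higher BAG3 in E545K than in wild-type cells, 0.24 ± 0.09 (adjusted p = 0.0439), was lost without any 1 of the 4 libraries (adjusted p from 0.0865 to 0.166) and became -0.059 after median-centring. HSPA8 had 1390 and 1264 FPKM in H1047R, 1087 and 1175 FPKM in E545K, and 1082 and 1114 FPKM in wild-type cells. H1047R was higher than wild type (0.27 ± 0.09, adjusted p = 0.0143), a call lost without WT DMSO replicate 1 (adjusted p = 0.0775) or H1047R DMSO replicate 1 (adjusted p = 0.111), and at -0.075 after median-centring. The mitochondrial HSPD1 and HSPE1 were not called in either mutant against wild type, but the scalings call them in opposite directions. Quantile normalization called HSPD1 (0.34, adjusted p = 0.00850) and HSPE1 (0.44, adjusted p = 0.000180) higher in H1047R, and median-centring called HSPD1 lower in H1047R (-0.21, adjusted p = 0.0288) and in E545K (-0.38, adjusted p = 0.00103). HSPD1 was higher in H1047R than in E545K (0.22 ± 0.07, adjusted p = 0.0213), at 615 and 660 FPKM against 558 and 533 FPKM. That call was lost without E545K DMSO replicate 2 (adjusted p = 0.134) or H1047R DMSO replicate 2 (adjusted p = 0.144). It was also lost after quantile normalization (adjusted p = 0.0642), after median-centring (adjusted p = 0.0912) and in the fit of these 2 groups only (adjusted p = 0.130).

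The lines were also compared within palbociclib and within conditioned medium, comparisons added after the values were seen. In palbociclib HSPA1B was at -1.56 ± 0.08 in H1047R (adjusted p = 1.39e-09) and -1.93 ± 0.08 in E545K (adjusted p = 1.19e-10) against wild type. DNAJB1 was at -0.62 ± 0.09 (adjusted p = 3.39e-05) and -0.79 ± 0.09 (adjusted p = 2.90e-06) in H1047R and E545K. In conditioned medium DNAJB1 was at 0.11 ± 0.09 in H1047R (adjusted p = 0.543) and 0.19 ± 0.09 in E545K (adjusted p = 0.121), and HSPA1B at -0.17 ± 0.08 in H1047R (adjusted p = 0.241) and -0.56 ± 0.08 in E545K (adjusted p = 8.55e-05). None of the 9 genes was called between H1047R and wild-type cells in conditioned medium, with 8.38% of all tested genes called there, and 3 were called between E545K and wild-type cells, with 33.9% of all genes. In palbociclib the shares of all genes called were 62.5% for H1047R and 65.1% for E545K. HSPA8 and HSPE1 were both higher in the mutants in palbociclib, by 0.74 ± 0.09 and 0.54 ± 0.10 in H1047R (adjusted p = 4.73e-06 and 0.000284).

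**Figure D2:**
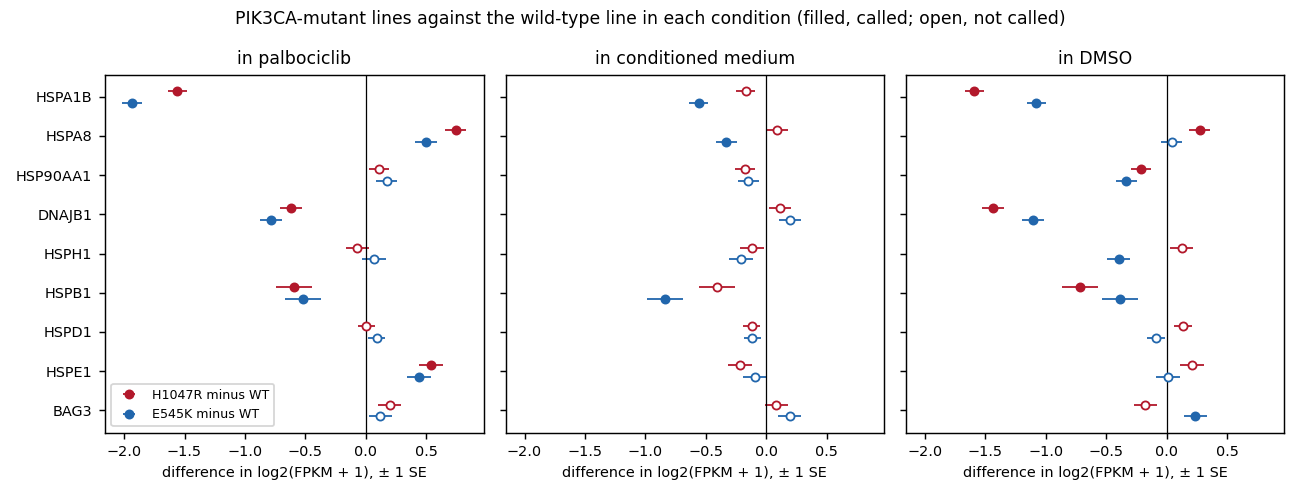
Difference in log2(FPKM + 1) of H1047R (red) and E545K (blue) from wild-type cells for each heat shock gene, in palbociclib, in conditioned medium and in DMSO; bars are 1 SE and filled points were called. HSPA1B and DNAJB1 lie far to the left in palbociclib and DMSO, while DNAJB1 lies right of 0 and uncalled in conditioned medium.

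Of the 9 tested, 3 were called in H1047R under palbociclib, all higher, where palbociclib called 39.3% of all genes, 19.5% higher and 19.8% lower. In E545K 3 were called, 2 higher and 1 lower, with 52.2% of all genes, 32.9% higher and 19.3% lower. In wild-type cells 3 were called, all lower, with 34% of all genes, 27.2% higher and 6.77% lower. Under median-centring the split was 3 higher and 0 lower in H1047R, 1 and 1 in E545K, and 0 and 3 in wild-type cells. Under quantile normalization it was 2 and 1 in H1047R, 4 and 1 in E545K, and 0 and 2 in wild-type cells. Over all genes called, the higher share after median-centring and after quantile normalization was 44.0% and 49.5% in E545K, in place of 63.0%, and 43.5% and 50.8% in wild-type cells, in place of 80.1%. The median of all tested genes was -0.03 in H1047R, 0.08 in E545K and 0.14 in wild-type cells.

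In wild-type cells the abundant cytosolic chaperones fell under palbociclib while inducible HSP70 was not called. HSPA8 had 840 and 867 FPKM in palbociclib and 1082 and 1114 FPKM in DMSO (-0.36 ± 0.09, adjusted p = 0.00594). HSP90AA1 had 247 and 235 FPKM in palbociclib and 319 and 308 FPKM in DMSO (-0.38 ± 0.09, adjusted p = 0.00370). DNAJB1 had 93.2 and 103 FPKM in palbociclib and 121 and 127 FPKM in DMSO (-0.34 ± 0.09, adjusted p = 0.0108). Relative to the all-gene median these were -0.50, -0.52 and -0.48. HSPA1B had 273 and 273 FPKM in palbociclib and 284 and 287 FPKM in DMSO, a log2 difference of -0.07 with a 95% interval of -0.24 to 0.10. The HSPA8 call was lost without WT palbociclib replicate 1 (adjusted p = 0.0515), and the DNAJB1 call without that library (adjusted p = 0.110) or WT DMSO replicate 2 (adjusted p = 0.0816). HSP90AA1 did not pass after quantile normalization (adjusted p = 0.0998).

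In E545K cells inducible HSP70 fell further under palbociclib and its exchange factor HSPH1 rose. HSPA1B had 68.3 and 73.0 FPKM in palbociclib and 131 and 139 FPKM in DMSO (-0.92 ± 0.08, adjusted p = 4.29e-07). HSPH1 had 39.3 and 37.3 FPKM in palbociclib and 26.5 and 24.8 FPKM in DMSO (0.56 ± 0.10, adjusted p = 0.000252). HSPE1 had 358 and 348 FPKM in palbociclib and 267 and 273 FPKM in DMSO (0.38 ± 0.10, adjusted p = 0.00474). The groups did not overlap for any of the 3, but these were picked by their calls, so this adds no support. No call was lost on leaving out a library, although HSPE1 did not pass after median-centring (adjusted p = 0.0993). DNAJB1 had 57.1 and 55.3 FPKM in palbociclib, against 53.8 and 60.2 FPKM in DMSO, overlapping ranges.

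In H1047R cells DNAJB1 and BAG3 rose under palbociclib, and HSPA1B was not called. DNAJB1 had 57.4 and 69.4 FPKM in palbociclib and 46.2 and 43.9 FPKM in DMSO (0.48 ± 0.09, adjusted p = 0.00107). BAG3 had 23.3 and 26.3 FPKM in palbociclib and 20.6 and 17.0 FPKM in DMSO (0.38 ± 0.09, adjusted p = 0.00565). HSPE1 had 346 and 412 FPKM in palbociclib and 317 and 304 FPKM in DMSO (0.28 ± 0.10, adjusted p = 0.0366). The H1047R libraries in palbociclib and in DMSO spread more than those of any other group. With the spread taken from these 2 groups alone none of the 3 passed (adjusted p = 0.111, 0.186 and 0.319). BAG3 was lost without H1047R DMSO replicate 2 (adjusted p = 0.0904) or H1047R palbociclib replicate 2 (adjusted p = 0.0501). HSPE1 was lost without H1047R palbociclib replicate 2 (adjusted p = 0.285) or without either DMSO library (adjusted p = 0.0588 and 0.164). The count of calls fell without H1047R DMSO replicate 2 or H1047R palbociclib replicate 2, and rose without H1047R palbociclib replicate 1. The count over all genes also changed with the library left out. Epithelial marker FPKM moved with the treatment in both mutants: the 10 markers summed to 12729 and 16689 FPKM in H1047R in palbociclib, against 8348 and 7337 FPKM in DMSO, and to 12605 and 13033 FPKM against 8068 and 8620 FPKM in E545K. Of the 9 markers tested, 3 were called higher and 4 lower in H1047R, and 4 higher and 3 lower in E545K. Their part in these results was not tested.

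In conditioned medium the mitochondrial chaperonin was higher and inducible HSP70 lower than in DMSO in wild-type and E545K cells. The hours in conditioned medium were not given, so medium and length of treatment cannot be told apart. HSPD1 had 834 and 767 FPKM in conditioned medium and 577 and 582 FPKM in DMSO in wild-type cells (0.46 ± 0.07, adjusted p = 4.00e-05). In E545K it had 741 and 735 FPKM in conditioned medium and 558 and 533 FPKM in DMSO (0.44 ± 0.07, adjusted p = 0.000115). In H1047R it had 747 and 724 FPKM in conditioned medium and 615 and 660 FPKM in DMSO (0.21 ± 0.07, adjusted p = 0.0679). The H1047R difference did not pass. The conditioned-medium libraries lay above the DMSO libraries in every line, but the share of all genes so separated was not counted, so this adds no support. HSPE1 had 499 and 404 FPKM against 279 and 258 FPKM in wild-type cells (0.74 ± 0.10, adjusted p = 1.02e-05), 430 and 411 FPKM against 267 and 273 FPKM in E545K (0.64 ± 0.10, adjusted p = 7.40e-05), and 397 and 376 FPKM against 317 and 304 FPKM in H1047R (0.31 ± 0.10, adjusted p = 0.0469), conditioned medium first in each. The H1047R call of HSPE1 was lost without any 1 of its 4 libraries (adjusted p from 0.0856 to 0.233). In wild-type cells all genes had a median of 0.29, relative to which HSPD1 was at 0.17 and HSPE1 at 0.45, and HSPD1 did not pass after median-centring (adjusted p = 0.179).

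HSPA1B had 96.1 and 92.5 FPKM in conditioned medium and 284 and 287 FPKM in DMSO in wild-type cells (-1.59 ± 0.08, adjusted p = 5.78e-10). In E545K it had 64.3 and 62.8 FPKM in conditioned medium and 131 and 139 FPKM in DMSO (-1.07 ± 0.08, adjusted p = 5.68e-08). In H1047R it had 79.0 and 88.5 FPKM in conditioned medium and 93.03 and 95.4 FPKM in DMSO (-0.17 ± 0.08, adjusted p = 0.179). In conditioned medium the gene lay between 62.8 and 96.1 FPKM in all 3 lines. DNAJB1 fell in wild-type cells, to 49.2 and 43.5 FPKM in conditioned medium, against 121 and 127 FPKM in DMSO (-1.40 ± 0.09, adjusted p = 6.09e-09). In the mutants it was not called, at 48.4 and 52.0 FPKM against 46.2 and 43.9 FPKM in H1047R and at 53.7 and 52.4 FPKM against 53.8 and 60.2 FPKM in E545K. Relative to the all-gene median of wild-type cells, HSPA1B was at -1.88 and DNAJB1 at -1.69.

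HSPH1 rose in E545K, with 37.7 and 38.5 FPKM in conditioned medium and 26.5 and 24.8 FPKM in DMSO (0.55 ± 0.10, adjusted p = 0.000223). In wild-type cells it had 48.4 and 40.5 FPKM in conditioned medium and 35.1 and 33.2 FPKM in DMSO (0.37 ± 0.10, adjusted p = 0.00391), which relative to the median is 0.07. That call was lost without WT conditioned medium replicate 1 (adjusted p = 0.0723), after quantile normalization (adjusted p = 0.0597) and after median-centring (adjusted p = 0.816). HSPB1 fell in E545K to 8.80 and 10.1 FPKM in conditioned medium, against 13.6 and 16.6 FPKM in DMSO (-0.62 ± 0.15, adjusted p = 0.00237). HSPA8 in E545K had 937 and 952 FPKM in conditioned medium and 1087 and 1175 FPKM in DMSO (-0.26 ± 0.09, adjusted p = 0.0216). The HSPA8 call was lost without E545K DMSO replicate 2 (adjusted p = 0.147) or either conditioned-medium library (adjusted p = 0.0953 and 0.0697), and its difference was 0.0085 after quantile normalization. HSP90AA1 and BAG3 were not called in any line as scaled by the authors. BAG3 was called lower after quantile normalization and after median-centring in wild-type cells (-0.36 and -0.49, adjusted p = 0.00414 and 0.00136) and in E545K (-0.26 and -0.31, adjusted p = 0.0327 and 0.0286). HSP90AA1 was called lower in wild-type cells after median-centring (-0.36, adjusted p = 0.00225) and higher in E545K after quantile normalization (0.28, adjusted p = 0.0328).

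In counts, conditioned medium called 1 of the 9 in H1047R, higher, where 14.6% of all genes were called, 8.65% higher and 5.97% lower. In E545K it called 6, 3 higher and 3 lower, with 57.3% of all genes, 32.4% higher and 24.9% lower. In wild-type cells it called 5, 3 higher and 2 lower, with 70.5% of all genes, 51.9% higher and 18.6% lower. Median-centring gave 0 and 0 in H1047R, 3 higher and 4 lower in E545K, and 1 higher and 5 lower in wild-type cells. Quantile normalization gave 1 and 1 in H1047R, 4 and 3 in E545K, and 3 and 3 in wild-type cells. Over all genes called, the higher share in wild-type cells was 73.6%, against 45.6% after median-centring and 51.3% after quantile normalization, and in E545K 56.6%, against 42.9% after median-centring. Of the 9 epithelial markers tested, 0 were called higher and 2 lower in H1047R, 5 higher and 0 lower in E545K (median 0.39, against 0.05 over all genes), and 4 higher and 4 lower in wild-type cells. Of the 5 other lineage markers tested, 1 was higher and 0 lower in H1047R, 0 higher and 3 lower in E545K, and 2 higher and 2 lower in wild-type cells. Ribosomal protein genes held 21.5 and 21.6% of the FPKM of wild-type cells in conditioned medium, against 27.1 and 27.3% in DMSO. The part of these in the results was not tested.

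**Figure D3:**
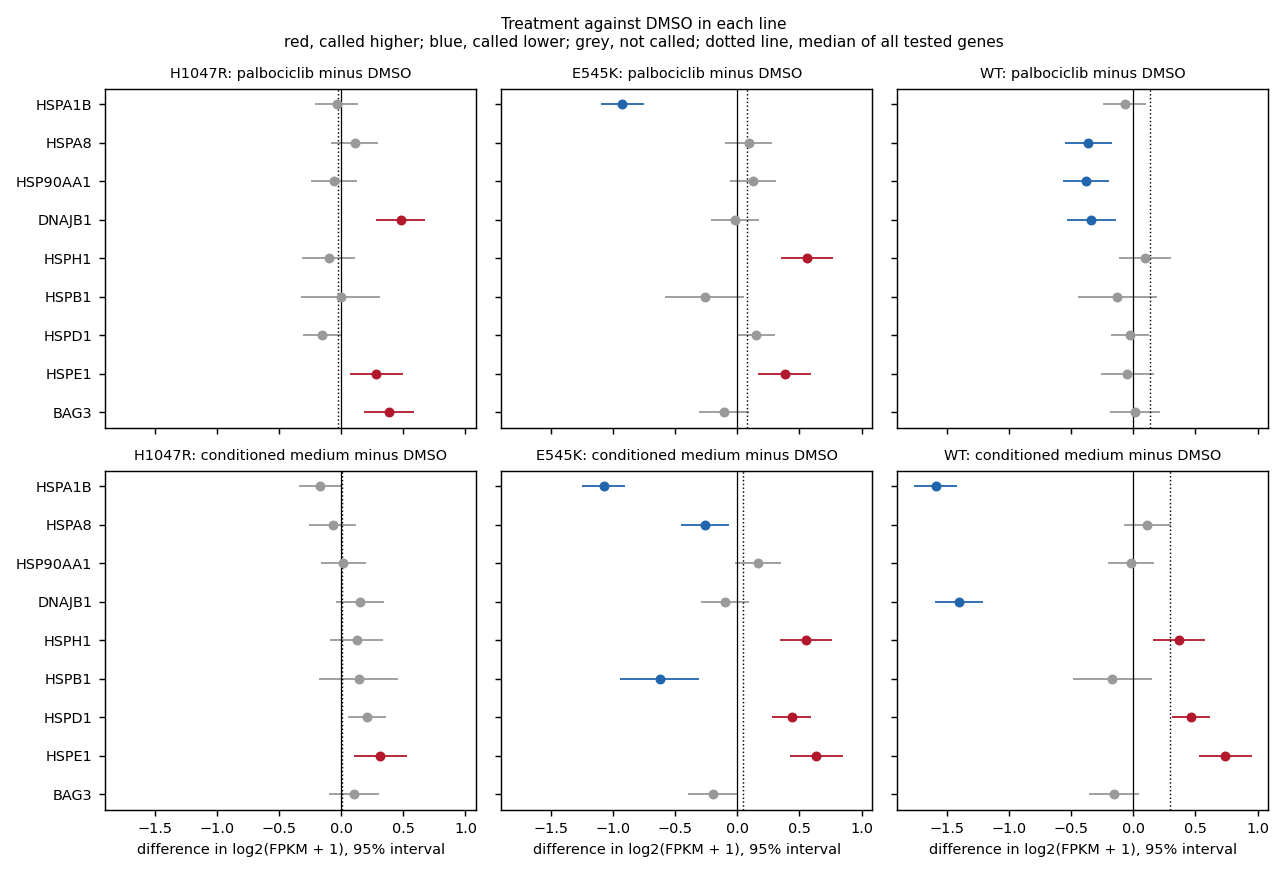
Difference in log2(FPKM + 1) from DMSO of the same line for each heat shock gene, with 95% intervals, under palbociclib (upper row) and conditioned medium (lower row) in H1047R, E545K and WT cells; red and blue were called higher and lower, and the dotted line is the median of all tested genes. HSPA1B lies near 0 in H1047R in both rows, at -0.92 and -1.07 in E545K, and at -0.07 and -1.59 in wild-type cells.

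The differences between lines in their response were tested directly, as the treatment effect in the mutant minus that in wild-type cells. All of these comparisons share the wild-type DMSO libraries. For conditioned medium, the DNAJB1 response of H1047R exceeded that of wild type by 1.55 ± 0.13 (adjusted p = 5.12e-07) and the HSPA1B response by 1.42 ± 0.11 (adjusted p = 3.82e-07). For E545K the excess was 1.302 ± 0.13 for DNAJB1 (adjusted p = 2.65e-06) and 0.52 ± 0.11 for HSPA1B (adjusted p = 0.00186). Relative to all-gene medians of -0.27 for H1047R and -0.23 for E545K, DNAJB1 was at 1.83 and 1.53. In all, 4 of the 9 differed for H1047R, 2 higher and 2 lower, where 50.9% of all genes did, 10.4% higher and 40.5% lower. For E545K 3 differed, 2 higher and 1 lower, where 47.1% of all genes did, 10% higher and 37.1% lower. After median-centring the counts were 5 higher and 0 lower for H1047R and 4 higher and 0 lower for E545K, and over all genes called the higher share was 57.7% in place of 20.4% and 47.4% in place of 21.3%. After quantile normalization the counts were 3 and 3 for H1047R and 2 and 1 for E545K, and the higher shares 48.1% and 46.2%. The HSPE1 response to conditioned medium was smaller in H1047R than in wild-type cells (-0.42 ± 0.14, adjusted p = 0.0207), which is -0.15 relative to the median and did not pass after median-centring (adjusted p = 0.713). It was also lost without WT conditioned medium replicate 1 (adjusted p = 0.118), WT DMSO replicate 2 (adjusted p = 0.0813), H1047R DMSO replicate 1 (adjusted p = 0.0527) or H1047R conditioned medium replicate 2 (adjusted p = 0.0717). The HSPD1 response was also smaller in H1047R (-0.26 ± 0.10, adjusted p = 0.0472), but was 0.083 after median-centring and was lost on leaving out any of the 8 libraries but H1047R DMSO replicate 1 and WT conditioned medium replicate 2 (adjusted p from 0.0726 to 0.170). The HSPA8 response was lower in E545K (-0.37 ± 0.13, adjusted p = 0.0246), which is -0.14 relative to the median. It did not pass after median-centring (-0.15, adjusted p = 0.511) and was lost on leaving out 5 of the 8 libraries in turn, replicate 1 of WT in DMSO and in conditioned medium, E545K DMSO replicate 2, and either E545K library in conditioned medium (adjusted p from 0.0557 to 0.112).

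For palbociclib, 2 of the 9 responses differed between H1047R and wild-type cells, both higher, with 22.6% of all genes, 5.16% higher and 17.4% lower. Between E545K and wild-type cells 5 differed, 4 higher and 1 lower, with 25.7% of all genes, 10.9% higher and 14.7% lower. For H1047R the counts were 5 higher and 0 lower after median-centring and 3 and 1 after quantile normalization, and over all genes called the higher share was 64.0% and 51.9%, in place of 22.8%. The DNAJB1 response was greater in H1047R by 0.82 ± 0.13 (adjusted p = 0.00117), the gene having risen in H1047R and fallen in wild-type cells. The HSPA1B response was lower in E545K by -0.86 ± 0.11 (adjusted p = 0.000135). HSP90AA1 was greater in E545K by 0.50 ± 0.12 (adjusted p = 0.00731). HSPA8 was greater by 0.47 ± 0.13 in H1047R (adjusted p = 0.0180) and by 0.46 ± 0.13 in E545K (adjusted p = 0.0158). The HSPA8 calls were lost on leaving out 3 of the 8 libraries in turn for H1047R and 4 of the 8 for E545K (adjusted p up to 0.0715). These were WT palbociclib replicate 1 and WT DMSO replicate 2 in both, H1047R DMSO replicate 2, and replicate 1 of E545K in DMSO and in palbociclib. The H1047R call of HSPA8 was also lost in the fit of the compared groups only (adjusted p = 0.126). The HSPH1 difference in E545K, 0.47 ± 0.14 (adjusted p = 0.0232), was lost without WT DMSO replicate 1, WT palbociclib replicate 2, E545K DMSO replicate 2 or E545K palbociclib replicate 1 (adjusted p from 0.0790 to 0.0832). The HSPE1 difference, 0.43 ± 0.14 (adjusted p = 0.0360), was lost on leaving out any of the 8 libraries but WT palbociclib replicate 2 (adjusted p from 0.0532 to 0.141).

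H1047R and E545K cells in 0.5 µM palbociclib were sequenced in both tables. In the table of 18 libraries only HSPA1B was called, higher, where 16.3% of all genes were called, 4.75% higher and 11.5% lower. Of those called, 61.6% were higher after median-centring and 54.3% after quantile normalization, in place of 29.2%. HSPA1B had 83.9 and 101 FPKM in H1047R and 68.3 and 73.0 FPKM in E545K (0.38 ± 0.08, adjusted p = 0.00625). That call was lost without E545K palbociclib replicate 1 (adjusted p = 0.0738), without H1047R palbociclib replicate 2 (adjusted p = 0.0504), and with the spread of these 2 groups alone (adjusted p = 0.237). The count of calls rose without H1047R palbociclib replicate 1, and the count over all genes also changed with the library left out. In the table of 8 libraries 4 genes were called, all lower in H1047R, where 51.6% of all genes were called, 21.5% higher and 30.1% lower, and HSPA1B was not among them, with 48.9 and 50.5 FPKM in H1047R and 55.3 and 52.8 FPKM in E545K (-0.12 ± 0.05, adjusted p = 0.0942).

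In that table HSPE1 had 232 and 254 FPKM in H1047R and 380 and 433 FPKM in E545K (-0.74 ± 0.07, adjusted p = 5.47e-05). HSPD1, its partner and neighbour, had 639 and 601 FPKM in H1047R and 611 and 626 FPKM in E545K, a difference of 0.0025 with a 95% interval of -0.10 to 0.11. HSPE1 was called and HSPD1 was not, and the difference between these genes was not tested. HSP90AA1 had 170 and 174 FPKM in H1047R and 273 and 288 FPKM in E545K (-0.70 ± 0.05, adjusted p = 1.13e-05). HSPB1 had 7.47 and 7.23 FPKM in H1047R and 13.8 and 12.5 FPKM in E545K (-0.76 ± 0.09, adjusted p = 0.000195). HSPA8 had 1096 and 850 FPKM in H1047R and 1225 and 1249 FPKM in E545K (-0.36 ± 0.10, adjusted p = 0.0159), a call lost without E545K palbociclib replicate 1 (adjusted p = 0.0626) or replicate 2 (adjusted p = 0.0780) of that table. In the table of 18 libraries the same comparison gave HSPE1 0.10 ± 0.10, HSP90AA1 -0.06 ± 0.09 and HSPB1 -0.07 ± 0.15, none of which was called. The tables were tested separately and the difference between them was not tested. Of the 9 epithelial markers tested in the table of 8 libraries, 8 were also lower in H1047R and 1 was higher, with a median of -0.74, and their part in the result was not tested.

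**Figure D4:**
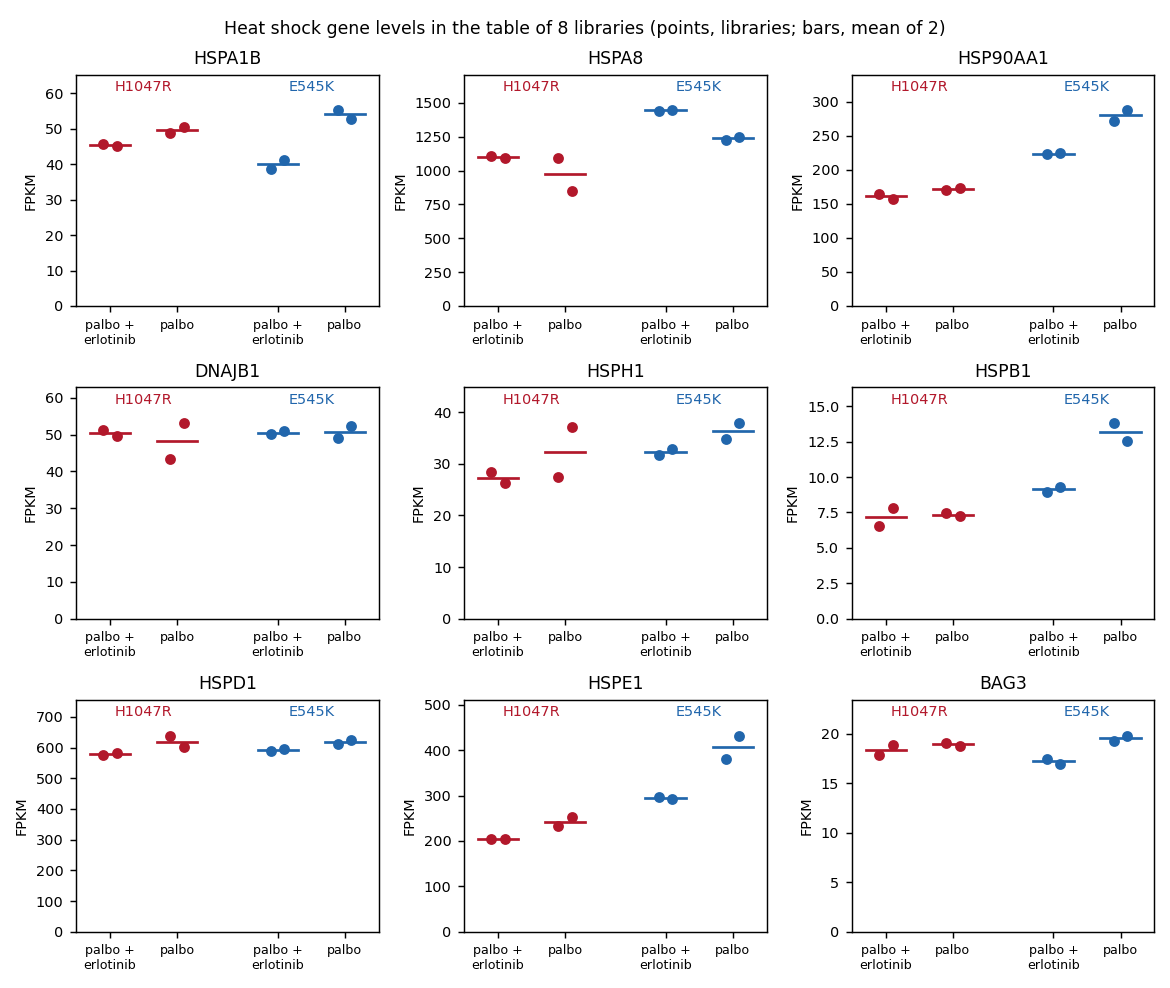
FPKM of the 9 tested heat shock genes in the table of 8 libraries, for H1047R (red) and E545K (blue) cells in 0.5 µM palbociclib with 4 µM erlotinib or 0.5 µM palbociclib alone; points are libraries, bars the mean of 2. HSPE1, HSP90AA1 and HSPB1 are lower in H1047R than in E545K in palbociclib alone, and HSPD1 lies between 575 and 639 FPKM in all 8 libraries.

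With erlotinib added to palbociclib, 4 of the 9 genes were called lower in E545K cells. Of all genes 16.2% were called, 7.1% higher and 9.11% lower. The hours in palbociclib alone were not given, so in both lines erlotinib and length of treatment cannot be told apart. Leaving out 1 library at a time took the 2020 genes called to between 512 and 694. HSPE1 had 297 and 293 FPKM with erlotinib and 380 and 433 FPKM without (-0.46 ± 0.07, adjusted p = 0.00400). HSPB1 had 8.96 and 9.29 FPKM with erlotinib and 13.8 and 12.5 FPKM without (-0.48 ± 0.09, adjusted p = 0.00925). HSPA1B had 38.7 and 41.2 FPKM with erlotinib and 55.3 and 52.8 FPKM without (-0.43 ± 0.05, adjusted p = 0.00194). HSP90AA1 had 223 and 225 FPKM with erlotinib and 273 and 288 FPKM without (-0.32 ± 0.05, adjusted p = 0.00386). In all 4 genes the libraries with erlotinib lay below those without, but the 4 were picked by their calls, so this adds no support. Of the 9 epithelial markers tested, 4 were also lower and 0 higher, with a median of -0.25 against -0.0042 over all genes, and ribosomal protein genes held 24.6 and 24.3% of the FPKM with erlotinib, against 20.6 and 20.9% without. Their part in the result was not tested. The HSPB1 call was lost without E545K palbociclib replicate 1 (adjusted p = 0.0828) or without either library with erlotinib (adjusted p = 0.0798 and 0.0628).

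In H1047R cells limma called 0 of the 9, where 9.36% of all genes were called, 3.01% higher and 6.35% lower, and 2 had an unadjusted p below 0.05. HSPE1 had 205 and 205 FPKM with erlotinib and 232 and 254 FPKM without, a difference of -0.24 with a 95% interval of -0.40 to -0.09 (adjusted p = 0.0591). HSPA1B had 45.7 and 45.3 FPKM with erlotinib and 48.9 and 50.5 FPKM without (-0.13, 95% interval -0.25 to -0.0043, adjusted p = 0.166). Over all genes called, the higher share was 50.8% after median-centring in place of 32.1%, and for the difference between lines given next 55.3% in place of 41.5%. The H1047R palbociclib libraries spread widely, and the heat shock genes called changed when either was left out. The count over all genes also changed with the library left out. The difference between the lines in the effect of erlotinib was called for 0 of the 9, where 2.17% of all genes were called, 0.899% higher and 1.27% lower, and 3 had an unadjusted p below 0.05. It was 0.30 with a 95% interval of 0.13 to 0.47 for HSPA1B (adjusted p = 0.0866), 0.23 with an interval of 0.08 to 0.39 for HSP90AA1 (adjusted p = 0.126), and 0.45 with an interval of 0.16 to 0.73 for HSPB1 (adjusted p = 0.114). The count of calls for this difference rose without either H1047R palbociclib library, and the count over all genes also changed with the library left out. DNAJB1, BAG3 and HSPD1 varied little over the 8 libraries, from 43.5 to 53.3, 16.9 to 19.8 and 575 to 639 FPKM.

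The wider chaperone network was described from lists of partner genes. Of the 15 mitochondrial chaperones and proteases, conditioned medium called 9 higher and 1 lower in wild-type cells, with a median of 0.46 against 0.29 over all genes, 6 higher and 1 lower in E545K, 0.08 against 0.05, and 6 higher and 0 lower in H1047R, 0.18 against 0.01. The shares of all genes called higher were 51.9%, 32.4% and 8.65%, and lower 18.6%, 24.9% and 5.97%, in these lines, so that in wild-type cells and E545K the list's counts are near those of all genes. HSPA9, the matrix HSP70, had 302 ± 0.608 FPKM in conditioned medium and 170 ± 3.61 FPKM in DMSO in E545K (SD, n = 2 each, 0.82 ± 0.08, adjusted p = 1.18e-06), and 251 ± 7.42 FPKM against 199 ± 6.16 FPKM in H1047R (0.33 ± 0.08, adjusted p = 0.0168). LONP1, the matrix protease, had 55.8 ± 0.707 FPKM in conditioned medium and 31.6 ± 0.127 FPKM in DMSO in wild-type cells (0.80 ± 0.09, adjusted p = 1.21e-06). After median-centring the counts were 7 higher and 3 lower in wild-type cells, 5 and 2 in E545K, and 5 and 0 in H1047R.

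Of the 14 subunits of CCT, the cytosolic chaperonin for actin and tubulin, and of prefoldin, which hands clients to it, conditioned medium called 10 higher and 1 lower in wild-type cells and 7 higher and 0 lower in H1047R, and 6 higher and 3 lower in E545K. Their medians were 0.34, 0.24 and 0.02, against 0.29, 0.01 and 0.05 over all genes, of which 70.5%, 14.6% and 57.3% were called. CCT7 had 235 ± 15.5 FPKM in conditioned medium and 124 ± 4.80 FPKM in DMSO in wild-type cells (0.91 ± 0.09, adjusted p = 4.54e-07), and 219 ± 3.61 FPKM against 158 ± 12.7 FPKM in H1047R (0.47 ± 0.09, adjusted p = 0.00353). The wild-type split was 4 higher and 3 lower after median-centring. Among the 14 HSP90 genes and cochaperones, CHORDC1, an HSP90 cochaperone, was lower in both mutants in DMSO, with 12.2 ± 2.75 FPKM in H1047R, 15.1 ± 1.45 FPKM in E545K and 23.1 ± 1.85 FPKM in wild-type cells. FKBP5, whose product binds HSP90 in steroid receptor complexes, was higher in both, with 10.6 ± 1.54, 10.3 ± 0.233 and 5.08 ± 0.0778 FPKM in the same order. That list gave 4 higher and 4 lower in H1047R and 5 higher and 3 lower in E545K, medians of 0.04 and 0.10 against 0.26 and 0.25 over all genes, of which 67.4% and 58.8% were called.

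HSF1, the factor that drives heat shock genes, had 18.3 ± 1.85 FPKM in H1047R and 28.7 ± 1.85 FPKM in E545K in DMSO (-0.63 ± 0.11, adjusted p = 0.000356), and was at 27.8 ± 1.22 FPKM in wild-type cells. In conditioned medium it had 18.2 ± 2.26 FPKM in wild-type cells (-0.59 ± 0.11 against DMSO, adjusted p = 0.000198) and 22.5 ± 0.693 FPKM in E545K (-0.34 ± 0.11, adjusted p = 0.0151). Of the 5 factors and regulators, 2 were called higher and 2 lower in H1047R against wild-type cells in DMSO, and 0 in E545K. Of all genes 67.4% and 58.8% were called in these comparisons. A level of HSF1 RNA does not give its activity. Of the 21 tested HSP70 and HSP40 partners, palbociclib called 6 higher and 1 lower in H1047R, 5 higher and 5 lower in E545K, and 3 higher and 0 lower in wild-type cells, where 39.3%, 52.2% and 34% of all genes were called. The list's medians were -0.03, -0.06 and -0.04, against -0.03, 0.08 and 0.14 over all genes, and after median-centring the wild-type split was 0 higher and 6 lower. BAG1, another nucleotide exchange factor, had 22.1 ± 3.65 FPKM in palbociclib and 11.2 ± 0.346 FPKM in DMSO in H1047R (0.91 ± 0.10, adjusted p = 1.56e-05), and 21.5 ± 0.318 FPKM against 10.4 ± 0.820 FPKM in E545K (0.99 ± 0.10, adjusted p = 2.70e-06). Of the 8 other small heat shock proteins, 2 passed the filter in the table of 18 libraries, HSPB8 and HSPB11.

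**Figure D5:**
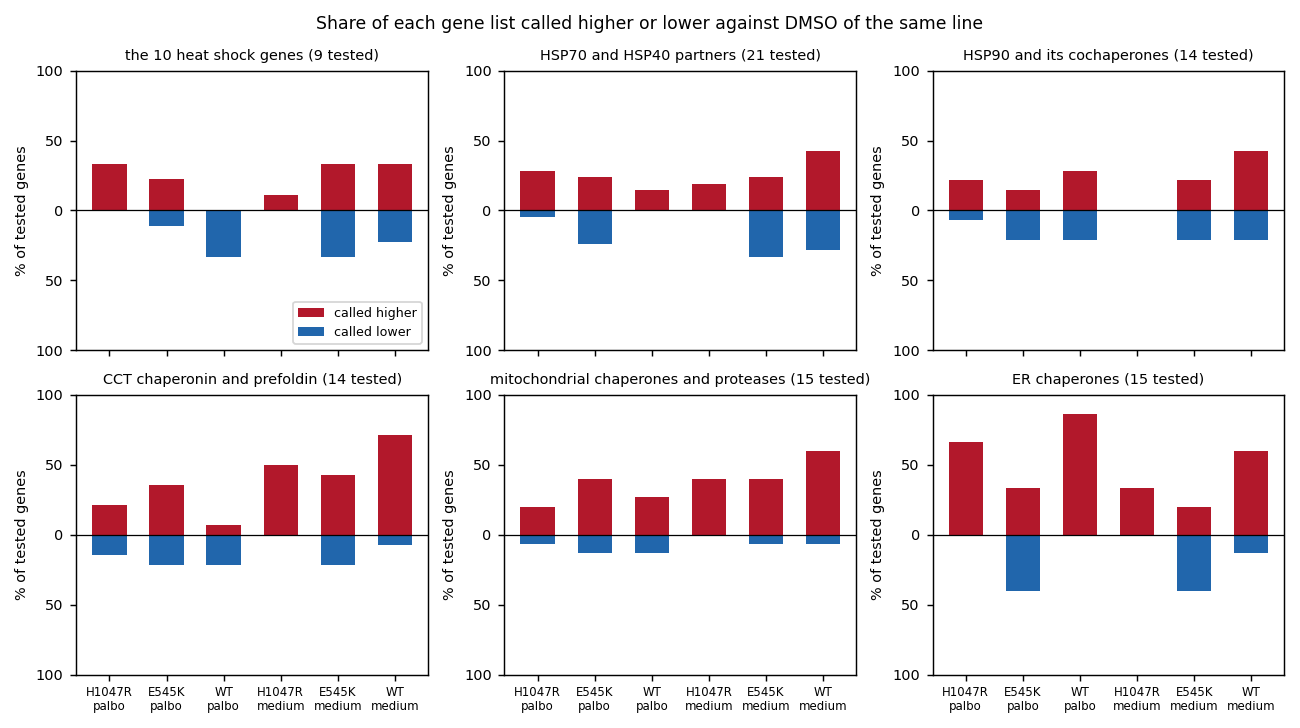
Share of the tested genes of each list called higher (red, above 0) or lower (blue, below 0) against DMSO of the same line, under palbociclib (palbo) and conditioned medium in H1047R, E545K and WT cells. In wild-type cells under palbociclib 13 of 15 ER chaperones and 0 of the 9 tested heat shock genes were called higher, against 27.2% of all genes. In H1047R under palbociclib 10 ER chaperones and 3 heat shock genes were called higher. In E545K under palbociclib the ER chaperones split into 5 higher and 6 lower, and the heat shock genes into 2 higher and 1 lower.

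Over the 9 group means of the table of 18 libraries, HSPA1B and DNAJB1 varied together (Pearson r = 0.88 of log2(FPKM + 1)), as did HSPA1B and HSPB1 (r = 0.83), HSPD1 and HSPE1 (r = 0.82) and HSPD1 and HSPH1 (r = 0.78), while HSPA1B and HSPE1 ran opposite (r = -0.81). They are the 5 strongest of the 36 pairs. These are descriptions over 9 points that share line and treatment. Wild-type cells in DMSO and in palbociclib had the highest HSPA1B means, 286 and 273 FPKM, against at most 135 FPKM in the other groups. Their DNAJB1 means were also the highest, 124 and 97.9 FPKM, against at most 63.4 FPKM in the other groups. How far the correlations, and the likeness to DNAJB1 given next, rest on these wild-type groups was not computed. The 5 of 12606 genes most like DNAJB1 were TFAP2E, a transcription factor of the AP-2 family (r = 0.98), ELOA, the elongin A subunit (r = 0.98), DUSP10, a MAP kinase phosphatase (r = 0.96), PWWP2B (r = 0.95) and DUSP1, an immediate early MAP kinase phosphatase (r = 0.95). TFAP2E ranged over group means from 0.95 to 1.9 FPKM, near the 1 FPKM of the filter, DUSP1 from 3.62 to 14.2 FPKM and ELOA from 8.69 to 32.2 FPKM. HSPA1B ranked 136 in this order. The 5 most like HSPD1 were SDHD, a subunit of mitochondrial succinate dehydrogenase (r = 0.96), NARS2, a mitochondrial asparaginyl-tRNA synthetase (r = 0.95), SLCO4C1, an organic anion transporter (r = 0.95), SLC19A2, a thiamine transporter (r = 0.95), and UBE3D (r = 0.95). HSPE1 ranked 188.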

How the data were processed

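The values analysed are FPKM per gene as deposited by the authors in a table of 18 libraries and a table of 8, which were tested separately. Per the submitters' processing notes, RSEM 1.3.1, HISAT2 2.1.0, DESeq2 1.4.5 and Bowtie2 2.3.4.3 were used on GRCh38, with no roles or order given. Read depth is unknown: among low values, 57.6% and 53.1% in the tables came within 0.15 of a whole number of the gene's smallest steps, too few to recover reads. From the FPKM, genes at 1 FPKM or more in at least 2 libraries were kept (12607 and 12463), log2(FPKM + 1) was fitted over all groups of a table with limma 3.58.1 (R 4.3.3, empirical Bayes with trend), and p-values were adjusted by Benjamini-Hochberg over all tested genes. Groups came from the sample labels. Alternatives were a pseudocount of 0.1, no filter, quantile normalization, median-centring, a fit of the compared groups only, a replicate block and leaving out each library. The members and lists were chosen with earlier results of these data known. The text names all 10 members, at most 4 called, non-overlapping genes of largest change per list and comparison, and the 5 genes most like DNAJB1 and HSPD1. The fits were tested on simulated data. Figures used matplotlib 3.10.9 and Python 3.11.15.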

Additional observations from a re-analysis of the deposited data

Results flagged for a closer look

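The responses of the mutant lines that differed from the wild-type response in the direct test are collected here, as the log2 treatment effect in the mutant minus that in wild-type cells, with limma adjusted p. Under palbociclib in H1047R they were 0.82 for DNAJB1 (adjusted p = 0.00117) and 0.47 for HSPA8 (adjusted p = 0.0180). Under palbociclib in E545K they were -0.86 for HSPA1B (adjusted p = 0.000135), 0.50 for HSP90AA1 (adjusted p = 0.00731), 0.46 for HSPA8 (adjusted p = 0.0158), 0.47 for HSPH1 (adjusted p = 0.0232) and 0.43 for HSPE1 (adjusted p = 0.0360). Under conditioned medium in H1047R they were 1.55 for DNAJB1 (adjusted p = 5.12e-07), 1.42 for HSPA1B (adjusted p = 3.82e-07), -0.42 for HSPE1 (adjusted p = 0.0207) and -0.26 for HSPD1 (adjusted p = 0.0472). Under conditioned medium in E545K they were 1.302 for DNAJB1 (adjusted p = 2.65e-06), 0.52 for HSPA1B (adjusted p = 0.00186) and -0.37 for HSPA8 (adjusted p = 0.0246). All of them use the wild-type DMSO libraries. Of all genes 22.6% and 25.7% differed under palbociclib in H1047R and E545K, and 50.9% and 47.1% in conditioned medium. Leaving out each of the 8 libraries in turn lost HSPA8 under palbociclib for 3 in H1047R and 4 in E545K. It lost HSPH1 for 4 and HSPE1 for 7 in E545K. In conditioned medium it lost HSPE1 for 4 and HSPD1 for 6 in H1047R, and HSPA8 for 5 in E545K. After median-centring these conditioned-medium calls did not pass, and HSPD1 turned to 0.083.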

How the results depend on the processing

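Over the alternatives, 160 of 204 counts of called heat shock genes stayed within 1.5 times the value reported. Of 1836 single differences, 1532 kept their direction and their side of the threshold. These totals include the lines compared in conditioned medium or palbociclib in place of DMSO, which is a change of libraries and not of processing. The sign turned in 118, of which 105 were called in neither setting. The 13 called in at least 1 follow, and the cause was not tested. Median-centring gave -0.059 for BAG3 in E545K against wild type, -0.075 for HSPA8, -0.22 for HSPH1 and -0.21 for HSPD1 in H1047R against wild type, and 0.083 for the HSPD1 response of H1047R to conditioned medium. Quantile normalization gave 0.030 for HSP90AA1 in H1047R against wild type and 0.0085 for HSPA8 in E545K in conditioned medium. With the lines compared in conditioned medium, chosen after seeing the data, E545K against wild type gave -0.33 for HSPA8 and 0.19 for DNAJB1, and H1047R gave 0.11 for DNAJB1. In palbociclib E545K gave 0.17 for HSP90AA1 and 0.068 for HSPH1, and H1047R gave 0.11 for HSP90AA1.

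Counts of called genes moved as follows. In E545K under palbociclib quantile normalization called 5 in place of 3. In H1047R under palbociclib the fit of those groups only called 0 in place of 3. In H1047R in conditioned medium 1 became 0 with no filter, after median-centring, in the fit of those groups only and with a replicate block, and 2 after quantile normalization. The palbociclib response of H1047R had 2 calls, against 4 after quantile normalization, 5 after median-centring and 1 in the fit of those groups only. H1047R against E545K in palbociclib gave 0 in place of 1 in the fit of those groups only, and erlotinib in H1047R gave 1 in place of 0 after quantile normalization. Between lines in conditioned medium the count was 3 in place of 6 for E545K and 0 in place of 5 for H1047R.

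Leaving out a library in turn gave 4 to 5 calls for E545K and 3 to 5 for H1047R against wild type, 3 to 6 between the mutants in DMSO, 1 to 3 for palbociclib in wild-type cells, 1 to 6 in H1047R, and 0 for conditioned medium in H1047R. It gave 2 to 4 and 1 to 5 for the palbociclib responses of E545K and H1047R, 2 to 3 and 2 to 5 for their conditioned-medium responses, 0 to 4 between the mutants in palbociclib, 3 to 6 for that comparison in the table of 8 libraries, and 0 to 3 for erlotinib in H1047R and for its difference between lines.

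Same-numbered libraries did not pair: their deviations correlated at -0.56 to 0.55 over 36 group pairs (15 over 0.1) and at -0.10 to 0.03 over 6. With the replicate block BAG3 in E545K against wild type was lost (adjusted p = 0.0503), as was HSPE1 in H1047R in conditioned medium (adjusted p = 0.0529), and HSP90AA1 was gained for the palbociclib response of H1047R (adjusted p = 0.0491). Over all genes, the fit of the compared groups only called 480 in place of 4951 for palbociclib in H1047R, 605 in place of 1844 for conditioned medium there, 288 in place of 2845 for its palbociclib response (1851 after quantile normalization), 339 in place of 2053 between the mutants in palbociclib, 3583 in place of 2020 for erlotinib in E545K and 115 in place of 1167 in H1047R (686 with no filter). For the erlotinib difference it was 112 with no filter and 141 with the replicate block, in place of 270. Leaving out a library gave 2616 to 2725 genes in place of 4287 for palbociclib in wild-type cells, 2732 to 6780 in H1047R, 686 to 1518 for conditioned medium in H1047R, 1268 to 5562 for the palbociclib response of H1047R, 779 to 5134 between the mutants in palbociclib, 201 to 3795 for erlotinib in H1047R and 34 to 2079 for its difference between lines. With 2 libraries a group and no read depth, small differences cannot be resolved.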

Other observations

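The chaperones of the endoplasmic reticulum fold secreted and membrane proteins. Palbociclib called 10 of the 15 higher and 0 lower in H1047R (median 0.49, against -0.03 over all genes), 5 higher and 6 lower in E545K (-0.14 against 0.08), and 13 higher and 0 lower in wild-type cells (0.47 against 0.14), where 39.3%, 52.2% and 34% of all genes were called. Median-centring gave 11 and 0, 3 and 7, and 9 and 0 in the same lines. HSPA5, the HSP70 of the endoplasmic reticulum, had 206 ± 3.37 FPKM in palbociclib and 116 ± 1.58 FPKM in DMSO in H1047R (SD, n = 2 each, 0.82 ± 0.07, limma adjusted p = 5.61e-07). In E545K it had 186 ± 0.728 FPKM in palbociclib and 326 ± 22.4 FPKM in DMSO (-0.81 ± 0.07, limma adjusted p = 2.87e-07). In wild-type cells it had 627 ± 12.7 FPKM in palbociclib and 314 ± 3.99 FPKM in DMSO (0.99 ± 0.07, limma adjusted p = 2.32e-07). The palbociclib response of HSPA5 was lower in E545K than in wild-type cells by -1.80 ± 0.10 (limma adjusted p = 3.75e-08). In conditioned medium HSPA5 had 150 ± 1.20 FPKM against 116 ± 1.58 FPKM in DMSO in H1047R, 155 ± 8.90 FPKM against 326 ± 22.4 FPKM in E545K, and 139 ± 9.21 FPKM against 314 ± 3.99 FPKM in wild-type cells.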
